A study of Mus musculus with 6 samples.

Results

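The enzymes described here handle nitrogen around arginine and ornithine: Cps1, Otc, Ass1 and Asl of the urea cycle, the arginase Arg2, the nitric oxide synthase Nos2, the ornithine users Oat and Odc1, the polyamine acetylase Sat1 and the glutamine synthetase Glul. They were taken by gene name, 10 of the 55487 genes in the count files, and all 10 passed the filter on low counts that left 18539 genes. The list was drawn up with results of the same comparison known, so their values are given as a description, with no p-value, and support nothing by themselves.

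The libraries hold polyadenylated RNA of purified colonic crypt cells from C57BL/6 mice 4 weeks old. The 3 mutant libraries came from M14(f/f);Villin-Cre mice and the 3 control libraries from M14(f/f) mice, so that both groups carried the M14 alleles flanked by loxP sites and only mutants carried Cre. Villin-Cre is active in the gut epithelium, and M14 is read as Mettl14, a subunit of the enzyme complex that writes N6-methyladenosine (m6A) on messenger RNA. Effects of Cre itself and of losing Mettl14 cannot be told apart, and the mice are described as 3 pairs with no label that says which mutant belongs to which control.

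In the urea cycle, Cps1 and Otc work inside mitochondria: they fix ammonia into carbamoyl phosphate and join it to ornithine to make citrulline. Ass1 and Asl then turn citrulline into arginine in the cytosol, and an arginase splits arginine into urea and ornithine. The full cycle runs in liver; intestinal epithelium is known for its mitochondrial steps, from which citrulline is released, while ornithine also feeds proline through Oat and polyamines through Odc1. Polyamines are needed by dividing cells, and nitric oxide made from arginine by Nos2 is part of epithelial and phagocyte defence.

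Library totals ran from 24181631 to 34842591 counts in mutants and from 32165546 to 35183636 in controls. Mettl14 stood at 14.0, 13.8 and 10.5 CPM (counts scaled to library size) in mutant 1, 2 and 3, and at 26.2, 20.9 and 22.0 CPM in the controls. The epithelial markers Epcam, Krt8, Krt18, Krt19, Cdh1, Vil1, Cdx1, Cdx2 and Lgals4 were detected in every library. Their summed level ran from 10652 to 12541 CPM in mutants and from 13198 to 14928 CPM in controls; Epcam, Krt8 and Vil1 fell, Cdh1 rose and 5 did not pass. Xist, which is transcribed from the silenced X chromosome of females, was at 652, 53.1 and 1.504 CPM in mutant 1, 2 and 3 and at 1.28 to 1.77 CPM in controls. The Y-linked gene Ddx3y was at 0.541, 38.0 and 44.2 CPM in the mutants and at 53.6 to 58.4 CPM in controls. Mutant 1 therefore stood apart as a female-type library and mutant 2 held transcripts of both kinds. Hoxb13, a gene of the hindmost colon, was lowest in mutant 1, at 24.2 CPM, against 88.8 and 61.6 CPM in mutant 2 and 3 and 79.3 to 80.3 CPM in controls. Of 6 such position markers Hoxd10 and Hoxd11 fell, with all mutants below all controls, and Hoxb13 and the other 3 did not pass.

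Because the deleted gene belongs to the m6A writer, the transcripts of the members were searched for GGACT, 1 of the forms of the sequence that the writer prefers. The transcript with the longest coding part was taken per gene from GENCODE vM21 on GRCm38, and only the sense strand was searched. The closest match to the end of the coding part is shown, in capitals, for Cps1, Otc and Nos2, which differed strongly. It is also shown for Glul, whose match lies nearest to that end.
Cps1: ctcgcactgtGGACTccaagagtct
Otc: aattgtcaatGGACTgtcagacttg
Nos2: gtactattgtGGACTactaaatctc
Glul: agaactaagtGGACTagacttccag
The match of Cps1 starts 51 bases before the last coding base and that of Otc 578 bases before it. The matches of Nos2 and Glul start 141 and 6 bases after the last coding base. Cps1 held 8 matches, or 1.44 per kilobase, more than 70.5% of the 14212 tested genes with a coding transcript. Otc and Nos2 held 0.431 and 0.477 per kilobase, more than 14.6% and 16.6% of these genes. The median of the members was 0.454 per kilobase, against 1.06 for the genes compared. Asl had the highest density of the members, 2.07 per kilobase. The closest matches of Asl and Ass1, not shown, start 108 and 1271 bases before the last coding base. Of those genes 91.8% held at least 1 match. Arg2, Oat, Odc1 and Sat1 held none, as did 8.24% of the genes compared. These are matches of letters only; methylation of these transcripts was not measured in these libraries.

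The RefSeq promoter table for GRCm38.p6 matched 6 of the 10 members, namely Otc, Ass1, Oat, Odc1, Sat1 and Glul. Cps1, Asl, Arg2 and Nos2 had no entry. The windows cover 250 bases before the RefSeq start site, which for Ass1 and Odc1 lies inside the gene span used for counting. The 6 windows held from 1 to 35 CG dinucleotides, and the median over 32851 promoters was 6. Both extremes are shown, with CG in capitals, since Otc was much lower in mutants and Odc1 was not; both read along the plus strand.
Otc: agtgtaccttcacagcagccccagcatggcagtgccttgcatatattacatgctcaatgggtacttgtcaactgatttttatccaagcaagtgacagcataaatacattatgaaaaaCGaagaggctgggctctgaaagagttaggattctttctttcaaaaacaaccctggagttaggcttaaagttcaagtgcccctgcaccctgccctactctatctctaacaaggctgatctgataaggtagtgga
Odc1: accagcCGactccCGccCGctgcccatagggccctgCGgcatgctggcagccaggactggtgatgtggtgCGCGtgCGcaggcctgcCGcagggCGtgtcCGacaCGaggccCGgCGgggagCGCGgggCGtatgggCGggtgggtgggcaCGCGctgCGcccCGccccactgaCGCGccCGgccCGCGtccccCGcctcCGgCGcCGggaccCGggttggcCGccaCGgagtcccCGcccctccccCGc
The Otc window (chrX:10252055-10252304) held 1 CG, and 7.87% of promoters held fewer, and the Odc1 window (chr12:17544623-17544872) held more than 97.0% of them. The other 4 held 14 to 23. CG content is a property of the reference, not a measurement in these mice.

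Transcripts of the mitochondrial steps of the urea cycle were low in mutants, and those of the cytosolic steps lay near the control level. Cps1 (plus strand of chromosome 1, 67123026 to 67231259 on GRCm38) stood at 10.9, 11.1 and 4.54 CPM in mutant 1, 2 and 3, against 151, 77.0 and 106 CPM in control 1, 2 and 3. The highest mutant library lay far below the lowest control, and the controls themselves differed among one another. The means were 8.85 ± 3.74 CPM in mutants and 111 ± 37.2 CPM in controls (SD, n = 3 each), which makes 7.96% of the control level. The log2 fold change, mutant minus control, was -3.68 (SE 0.34). Fewer cells of a type and less RNA per cell cannot be told apart in bulk libraries.

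Otc (plus strand of chromosome X, 10252305 to 10321024), the next enzyme, stood at 5.49, 4.80 and 1.75 CPM in the mutants, against 20.5, 20.7 and 19.2 CPM in the controls. The groups were well apart, and the controls lay close together, with a coefficient of variation of 3.87% against 33.5% for Cps1. Its log2 fold change was -2.36 (SE 0.31), and it ran from -2.68 without mutant 1 to -1.96 without mutant 3. Mutant 3 was the lowest library for both genes. With mutant 3 as the only mutant left, Cps1 had a log2 fold change of -4.64 and Otc of -3.55.

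Ass1 (plus strand of chromosome 2, 31470207 to 31520672) was a low-level transcript throughout. It stood at 3.44, 5.40 and 3.20 CPM in mutants and 4.82, 4.48 and 4.97 CPM in controls, and mutant 2 lay above every control. Asl (minus strand of chromosome 5, 130011258 to 130029247) stood at 37.5, 36.2 and 39.8 CPM in mutants and 37.2, 35.2 and 34.6 CPM in controls. Groups overlapped for both genes, with log2 fold changes of -0.25 (SE 0.21) for Ass1 and 0.09 (SE 0.071) for Asl. In CPM per kilobase of exon length (RPKM), the level of Cps1 was 0.254, 0.266 and 0.0991 times that of Asl in mutants, against 3.52, 1.90 and 2.66 times in controls. Cps1 outweighed Asl in each control and lay below it in each mutant.

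Arg2 (plus strand of chromosome 12, 79130777 to 79156301), the mitochondrial arginase, stood at 1.78, 2.04 and 1.15 CPM in mutants, against 14.98, 19.1 and 13.5 CPM in controls. The groups were far apart, with means of 1.66 ± 0.459 CPM in mutants and 15.8 ± 2.88 CPM in controls (SD, n = 3 each) and a log2 fold change of -3.28 (SE 0.22). Mutant 3 was again lowest, and mutant values rest on 42 to 51 counts. Of the exon bases of Arg2, 285 lie opposite exons of Vti1b, which counting by strand keeps apart. Arg1, the cytosolic arginase of liver, was low in both groups at 2.25 ± 0.981 CPM in mutants and 2.05 ± 0.528 CPM in controls (SD, n = 3 each; adjusted p = 0.771 by edgeR).

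Oat (minus strand of chromosome 7, 132557478 to 132576398) links ornithine to proline and glutamate in mitochondria. It stood at 129.8, 120.5 and 129 CPM in mutants, against 198, 192 and 184 CPM in controls. The difference was modest, with a log2 fold change of -0.60 (SE 0.070), but both groups were tight and did not overlap. Leaving out any 1 library gave values between -0.64 and -0.57.

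Nos2 (plus strand of chromosome 11, 78920787 to 78960254), the inducible nitric oxide synthase, was higher in mutants by very different amounts. Single libraries stood at 14.0, 52.0 and 47.1 CPM in mutant 1, 2 and 3, against 9.56, 8.76 and 10.2 CPM in controls. The groups did not overlap, but mutant 1 lay near the controls. The means were 37.7 ± 20.7 CPM in mutants and 9.49 ± 0.706 CPM in controls (SD, n = 3 each), with a log2 fold change of 1.99 (SE 0.39) that was between 1.69 (without mutant 2) and 2.37 (without mutant 1) when 1 library was left out. In RPKM, Nos2 was 2.53, 8.19 and 13.2 times Arg2 in mutants and 0.205, 0.148 and 0.242 times Arg2 in controls. Both enzymes use arginine, and Nos2 was the more abundant transcript in each mutant and Arg2 in each control. The mutant ratios rest on 42 to 51 counts of Arg2. Bulk libraries do not show whether both transcripts lie in the same cells.

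Odc1 (plus strand of chromosome 12, 17544794 to 17551505), the first and regulated step of polyamine synthesis, stood at 81.5, 63.0 and 67.0 CPM in mutants, against 53.5, 52.6 and 61.5 CPM in controls. Its groups were adjacent, since the lowest mutant lay just above the highest control. Its log2 fold change was 0.34 (SE 0.11), and 0.21 without mutant 1, its highest library. Sat1 (minus strand of chromosome X, 155213132 to 155216449), which acetylates polyamines for export and breakdown, stood at 66.2, 95.2 and 106 CPM in mutants and 109.6, 97.6 and 106 CPM in controls. Mutant 1, the female-type library, alone was clearly below the controls. The log2 fold change was -0.23 (SE 0.15), and -0.06 without mutant 1. Sat1 and Otc are X-linked, and Otc was highest in mutant 1 among the mutants. The part of sex in these levels was not tested.

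Glul (plus strand of chromosome 1, 153899944 to 153909723), which binds ammonia to glutamate, stood at 151, 179.6 and 146 CPM in mutants, against 221, 183 and 208 CPM in controls. The highest mutant and lowest control nearly met. The log2 fold change was -0.36 (SE 0.10).

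**Figure D1:**
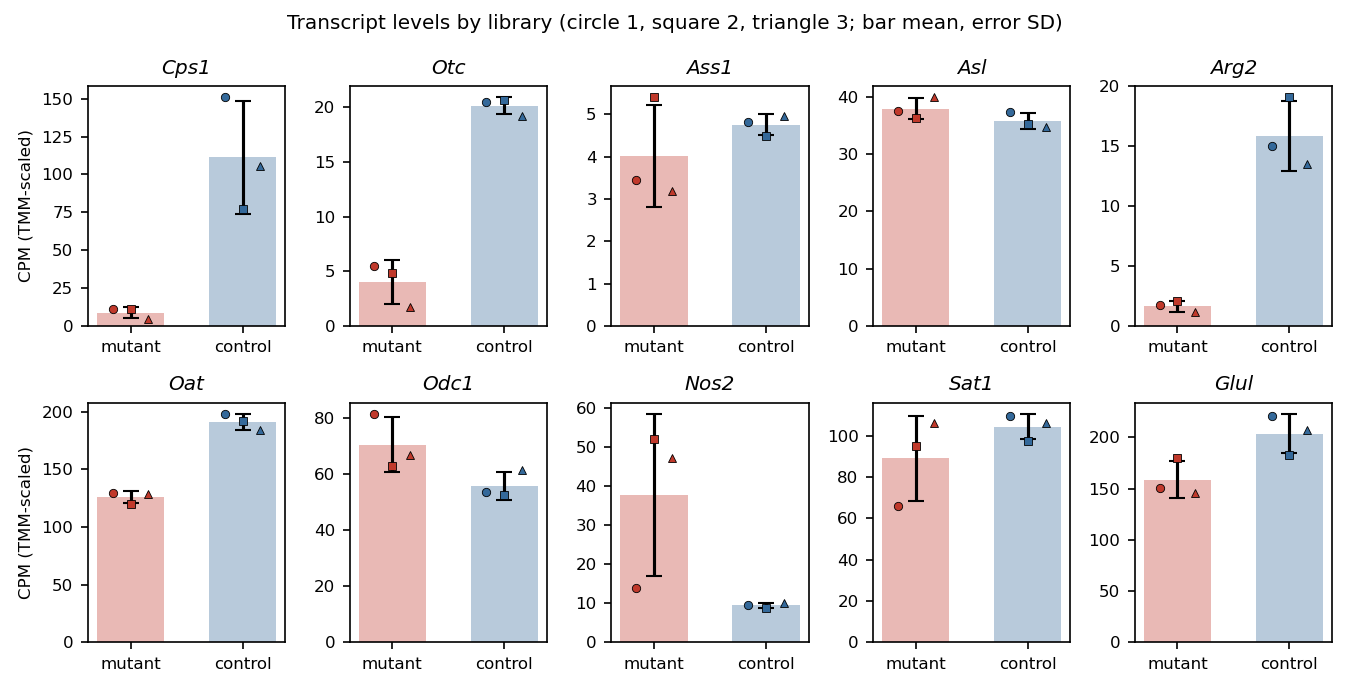
TMM-scaled CPM of the 10 enzymes in the 3 mutant and 3 control libraries, on axes that start at 0. Points are libraries 1, 2 and 3, bars are means and error bars SD; Cps1, Otc and Arg2 are low in all mutants, and Nos2 is high in mutant 2 and 3 (52.0 and 47.1 CPM) but at 14.0 CPM in mutant 1.

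In the edgeR quasi-likelihood fit across all tested genes, 7 of the 10 members passed an adjusted p of 0.05, 2 higher (Nos2 and Odc1) and 5 lower (Cps1, Otc, Arg2, Oat and Glul). Of all tested genes 46.3% passed, 23.5% higher and 22.8% lower. Mutant and control libraries were fully separated in CPM for 7 members and for 56.9% of tested genes. The median log2 fold change of the members was -0.31 and that of all tested genes 0.01. The members were picked from this comparison, so nothing is read from these shares.

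Per length, Oat was the most abundant of the 10 transcripts in both groups, at 53.6 ± 2.20 RPKM in mutants and 81.1 ± 2.88 RPKM in controls (SD, n = 3 each). Glul followed at 42.0 RPKM in mutants and 53.9 RPKM in controls, and Sat1 at 32.1 RPKM in mutants and 37.6 RPKM in controls. In mutants the order went on with Odc1 (20.7), Nos2 (8.49), Asl (7.84), Ass1 (1.66), Cps1 (1.59), Arg2 (1.16) and Otc (0.946 RPKM). In controls it was Cps1 (20.02), Odc1 (16.4), Arg2 (11.1), Asl (7.38), Otc (4.75), Nos2 (2.14) and Ass1 (1.97 RPKM). Cps1 thus ranked 8 in mutants and 4 in controls, and Nos2 ranked 5 in mutants and 9 in controls. Neighbours whose libraries overlapped were Sat1 and Odc1, Nos2 and Asl, and all from Ass1 down to Otc in mutants, and Cps1 and Odc1, and Nos2 and Ass1, in controls. Cps1 made up 0.944% of the summed level of the 10 in mutants and 8.38% in controls. These levels use the length of all annotated exons of a gene, which can exceed that of the transcript in these cells.

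**Figure D2:**
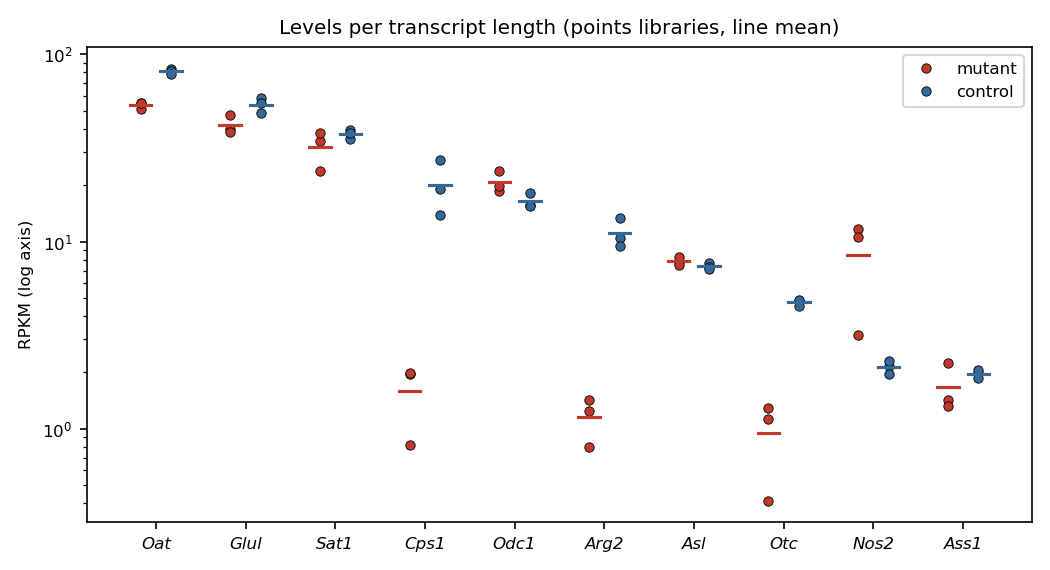
RPKM of the 10 transcripts on a log axis, ordered by the control mean, with a point for each library and a line at the mean, mutants left of controls. Oat, Glul and Sat1 lead in both groups, and Cps1 is among the lowest in mutants (1.59 RPKM) and among the upper ones in controls (20.02 RPKM).

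Libraries of the same genotype also differed, in part in a shared way. Mutant 3 held the least Cps1, Otc, Arg2, Ass1 and Glul of the mutants, and it also held the least Mettl14, at 10.5 CPM. Reg4, which marks secretory cells deep in the crypt, had the same order of libraries as Cps1 in controls, with 1396, 654 and 947 CPM in control 1, 2 and 3, and it was lowest in mutant 3, at 321, 216 and 131 CPM in mutant 1, 2 and 3. The summed level of Reg4, Spink4 and Kit ran from 505 to 789 CPM in mutants and from 1615 to 2691 CPM in controls, and 2 of these 3 fell. Spink4 had the order of Reg4 in both groups. Kit did not, with 110.4, 98.2 and 107.8 CPM in mutants and 104.5, 126.0 and 113.1 CPM in controls. That order of controls was not particular to these cells. The epithelial markers Epcam, at 2285, 2083 and 2173 CPM in control 1, 2 and 3, Krt8, Krt19, Lgals4, Cdx1 and Cdx2 shared it. Vil1, Krt18 and Cdh1 did not, and Arg2 and Otc were highest in control 2. The summed level of 7 goblet cell markers ran from 12243 to 13093 CPM in mutants and from 19873 to 23869 CPM in controls; 1 of them rose and 4 fell. The summed level of 7 absorptive colonocyte markers ran from 4302 to 5548 CPM in mutants and from 9118 to 10413 CPM in controls, and 4 of them fell. Of 5 stem cell markers Lgr5, Rnf43 and Smoc2 fell, Ascl2 rose and Axin2 did not pass, and they summed to 113 to 122 CPM in mutants and 166 to 168 CPM in controls. Lgr5, the receptor that marks crypt base stem cells, had a log2 fold change of -3.00 (adjusted p = 4.17e-07 by edgeR). The part of these cell types in the low Cps1, Otc and Arg2 levels was not tested.

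By the root mean square distance of log2(CPM + 0.5) profiles over the 6 libraries, each minus the mean of controls, the transcripts most like Cps1 among 10353 genes were Slc37a2 (distance 0.22), Sult1a1 (0.31) and Gal3st2c (0.45). Slc37a2, a sugar phosphate transporter, stood at 34.8, 33.6 and 17.1 CPM in mutants and 538, 313 and 415 CPM in controls, with the same lowest mutant and the same order of controls as Cps1. The transcripts most like Nos2 were Steap4 (0.18), a metalloreductase, Abtb2 (0.26) and AW112010 (0.28). Steap4 stood at 16.7, 45.4 and 56.7 CPM in mutants and 11.8, 10.7 and 11.1 CPM in controls, so that it too was near the controls in mutant 1. Nearest to Odc1 were Kdm2b (0.05), Grasp (0.06) and Fbxo21 (0.06). These likenesses are descriptions of 6 libraries and are dominated by the difference between the genotypes. The genes were picked by these same values, so their shared orders of libraries follow from the choice and support nothing.

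Most markers of phagocytes rose, as Nos2 did, but their orders among the mutants differed. Of 13 macrophage and dendritic cell markers 12 rose and C1qa fell, and their summed level was higher in each mutant than in the controls, which ran from 36.9 to 46.5 CPM. That sum was 80.4, 107 and 85.5 CPM in mutant 1, 2 and 3, the same order of mutants as Nos2. Of the single markers Csf1r, Adgre1, Cd68 and Fcgr1 shared that order, Fcgr1 with nearly equal values. In mutants most of the summed level was Cd14, at 27.9, 36.2 and 36.3 CPM, and Lyz2, at 16.9, 25.4 and 12.9 CPM. Both had other orders. So had Mrc1, Itgam, Itgax, Cx3cr1, C1qa, C1qb and C1qc, with Cx3cr1 and C1qa highest in mutant 1 and Itgam lowest in mutant 2. Of 5 tested neutrophil markers 4 rose, and the summed level of all 6 was 13.3, 39.9 and 34.3 CPM in mutant 1, 2 and 3, the order of Nos2, and 9.36 to 13.1 CPM in controls. Most of that sum was Ly6g, at 11.1, 34.3 and 27.9 CPM in mutants and 8.22, 12.9 and 10.3 CPM in controls. Its highest control lay above mutant 1. S100a8 had the same order of mutants, at 0.734, 2.96 and 2.87 CPM, but was at 0 to 0.0594 CPM in controls. S100a9, at 0.425, 1.16 and 1.504 CPM, and Csf3r, at 0.387, 0.880 and 1.48 CPM, were highest in mutant 3, and Cxcr2, at 0.425, 0.360 and 0.273 CPM, was highest in mutant 1. No count of S100a8 was found in control 3 and none of S100a9 in control 2. Mutant 1, the lowest mutant for Nos2, was also the library with low Hoxb13 and high Xist. The ribosomal RNA row CT010467.1 took 12.9% of its counts, against 7.44% and 5.16% in mutant 2 and 3 and 7.76% to 8.9% in controls. The part of these cells, of position along the colon and of sex in the level of Nos2 was not tested. Lymphocyte markers summed to 15.4 to 22.3 CPM in mutants and 12.4 to 15.3 CPM in controls, with 1 of 8 tested higher and Cd79a at 0 in mutant 1 and 2. Those of fibroblasts and muscle summed to 134 to 152 CPM in mutants and 253 to 296 CPM in controls, with 8 of 11 lower. Endothelial and glial markers summed to 25.5 to 29.4 CPM in mutants and 15.5 to 16.6 CPM in controls, with 3 of 7 tested higher and S100b at 0 in mutant 2.

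**Figure D3:**
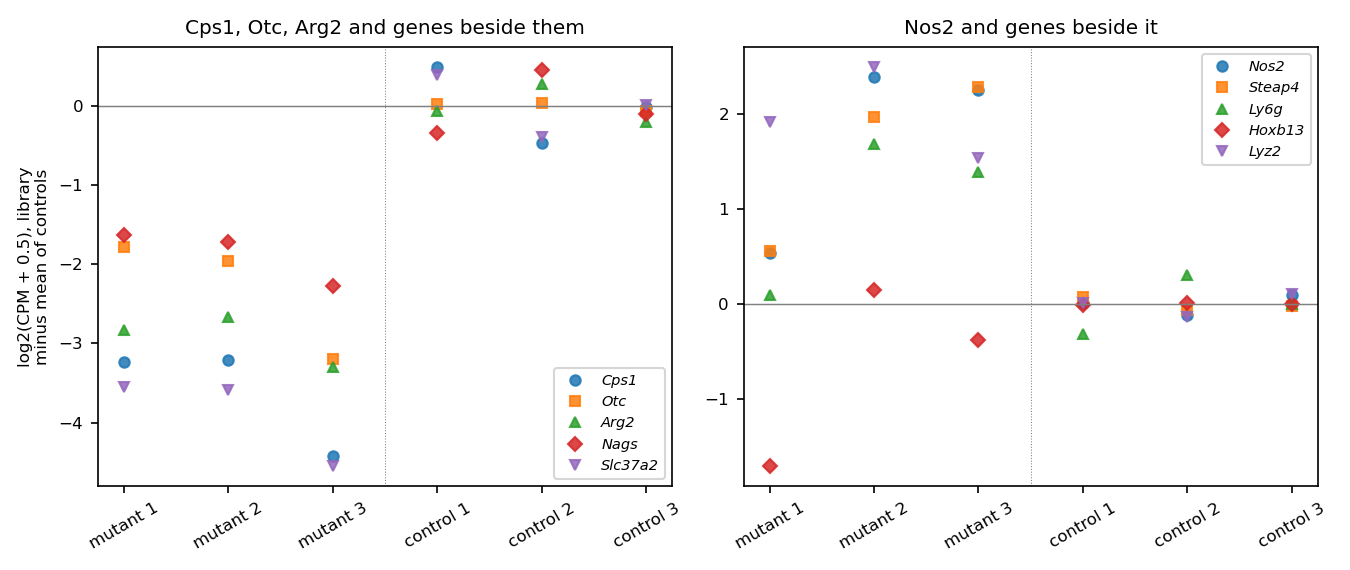
log2(CPM + 0.5) of single libraries minus the mean of the 3 controls, mutants left of the dotted line. On the left Cps1, Otc, Arg2, Nags and Slc37a2 all lie lowest in mutant 3. On the right Nos2, Steap4 and Ly6g lie near the controls in mutant 1, where Hoxb13 is low. Lyz2 lies above the controls in every mutant. Slc37a2 and Steap4 were chosen for their likeness to Cps1 and Nos2.

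The rest of the pathways was read from 64 partner genes listed by role, of which 62 were tested. Of these 14 rose and 15 fell, and 33 did not pass; the share that passed was 46.8%, beside 46.3% of all tested genes, and the median log2 fold change was 0.05, beside 0.01. Adjusted p-values below are from the edgeR quasi-likelihood test over all tested genes. In 4 of the 5 lists genes passed in both directions.

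Among the 6 tested urea cycle partners Nags alone passed. Nags makes N-acetylglutamate, the activator without which Cps1 does not work. It stood at 2.90, 2.68 and 1.67 CPM in mutants, against 7.76, 13.9 and 9.23 CPM in controls. It fell by 2.11 on the log2 scale (SE 0.27, adjusted p = 1.90e-04), and mutant 3 was lowest as it was for Cps1. Exons of Gm11586 lie opposite 443 of its exon bases. Slc25a15, the mitochondrial ornithine carrier, had a log2 fold change of -0.24 (adjusted p = 0.0812), which passed without mutant 1 at -0.36. Sirt5, a mitochondrial deacylase, had 0.31 (adjusted p = 0.0715), and Car5b, a mitochondrial carbonic anhydrase, had -0.27 (adjusted p = 0.4995). Slc25a13, the carrier that supplies aspartate for Ass1, stood at 38.5 ± 1.05 CPM in mutants and 37.7 ± 1.04 CPM in controls (SD, n = 3 each; adjusted p = 0.726 by edgeR).

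Of 13 genes of arginine, ornithine and proline metabolism 3 rose, 4 fell and 6 did not pass. Aldh18a1, which makes pyrroline-5-carboxylate from glutamate on the way to proline and ornithine, rose by 0.72 on the log2 scale, to 120.6 ± 10.9 CPM in mutants against 73.2 ± 3.74 CPM in controls (SD, n = 3 each; adjusted p = 1.09e-04 by edgeR). Pycr1 and Pycrl are reductases of the last step to proline. Pycr1 fell to 3.55 ± 0.310 CPM, against 8.67 ± 0.869 CPM in controls (adjusted p = 1.13e-04), and Pycrl fell by 0.63 on the log2 scale (adjusted p = 1.63e-04). Aldh4a1, which oxidises pyrroline-5-carboxylate to glutamate, fell by 1.00 (adjusted p = 7.16e-04). It shares 1595 of its 4907 exon bases with Gm21969 on the same strand. Reads there were taken not to be counted, since no option for them is recorded. Slc7a1, the main cationic amino acid importer, rose by 0.55 (adjusted p = 0.00238), with 87.8, 64.6 and 70.6 CPM in mutants against 48.2, 52.9 and 50.9 CPM in controls.

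Of 11 tested partners of nitric oxide synthesis 1 rose and 3 fell. Nitric oxide synthases need tetrahydrobiopterin, and the genes of its supply went both ways. Spr, which catalyses the last step of its synthesis, rose to 81.2 ± 1.20 CPM in mutants, against 49.0 ± 4.81 CPM in controls (adjusted p = 8.52e-05 by edgeR). Pts, the step before, fell by 0.39 (adjusted p = 0.00428), and Qdpr, which recycles the cofactor, fell by 0.75 on the log2 scale (adjusted p = 2.87e-05). Gch1, the first enzyme of that synthesis, stood at 15.7, 25.9 and 25.1 CPM in mutants and 16.2, 17.5 and 16.8 CPM in controls. Like Nos2, it lay near the controls in mutant 1 (log2 fold change 0.40, adjusted p = 0.0727), and it passed without mutant 1 at 0.58. Ddah1, which clears methylarginine inhibitors of the synthases, fell by 0.36 (adjusted p = 0.00305). Nos1 and Nos3, the neuronal and endothelial synthases, averaged 0.0395 and 0.0515 RPKM in mutants and 0.0831 and 0.0461 RPKM in controls, far below Nos2 in both groups.

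Of 17 polyamine genes 4 rose, 4 fell and 9 did not pass. The spermidine and spermine synthases Srm and Sms, and Amd1, which makes the aminopropyl donor they use, did not pass. Amd1, Srm and Sms had log2 fold changes of 0.36, 0.19 and 0.33 (adjusted p = 0.168, 0.232 and 0.111). Transcripts of 2 oxidases, Smox and Aoc1, were higher, while Paox, another oxidase, did not pass (log2 fold change -0.09, adjusted p = 0.656). The largest fall of the list was that of Sat2, by 1.43 (adjusted p = 0.00228). Smox, the spermine oxidase, rose to 45.6, 58.8 and 66.0 CPM in mutants, against 23.6, 28.6 and 27.0 CPM in controls (1.11 on the log2 scale, SE 0.13; adjusted p = 1.21e-04). Aoc1, which oxidises putrescine and histamine, rose to 231, 282 and 329 CPM, against 164, 109 and 136 CPM in controls (1.04 on the log2 scale, SE 0.16; adjusted p = 5.89e-04). Mtap, which salvages the methylthioadenosine left by the synthases, rose by 0.88 (adjusted p = 3.89e-04). Azin1, a decoy of the antizymes that protects the Odc1 protein from degradation, fell to 111 ± 4.30 CPM, against 174 ± 10.4 CPM in controls (log2 fold change -0.64, adjusted p = 1.001e-04), while Odc1 itself was higher. The antizyme genes Oaz1 and Oaz2 had log2 fold changes of -0.16 and -0.20 (adjusted p = 0.322 and 0.250). Atp13a3, a polyamine importer, fell by 0.60 (adjusted p = 2.23e-04). Reads that align to several places were taken not to be counted, since no option for them is recorded. Levels of genes with processed copies elsewhere, Oaz1 and Eif5a among them, are therefore uncertain.

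Of 15 genes of glutamine and glutamate use 6 rose, 3 fell and 6 did not pass. Asns, which uses glutamine to make asparagine, rose by 1.36 on the log2 scale (adjusted p = 1.45e-05), and the cytosolic aspartate transaminase Got1 rose by 0.65 (adjusted p = 2.20e-04). Gfpt1, which takes glutamine into the hexosamines of mucins, fell to 941 ± 61.6 CPM in mutants, against 1593 ± 181 CPM in controls (log2 fold change -0.76, adjusted p = 3.17e-04). The alanine transaminase Gpt fell by 0.62 (adjusted p = 0.00123). Cad, whose carbamoyl phosphate synthetase part serves pyrimidine synthesis in the cytosol, stood at 52.8 ± 6.82 CPM in mutants and 57.4 ± 4.78 CPM in controls (SD, n = 3 each; adjusted p = 0.357 by edgeR), and without mutant 1 it passed at a log2 fold change of -0.24.

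**Figure D4:**
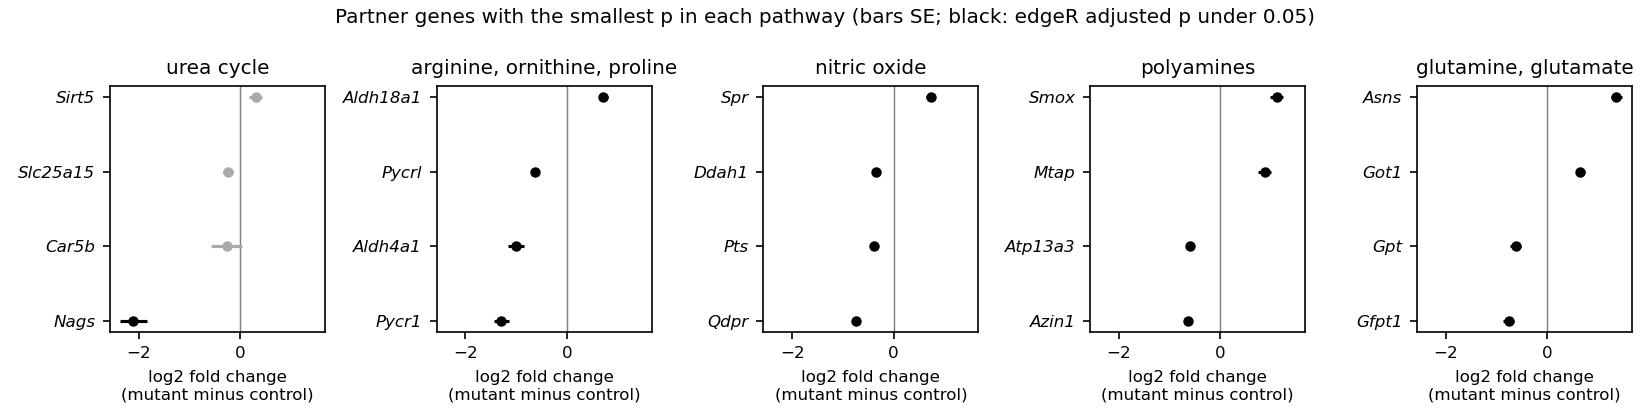
log2 fold change (mutant minus control) of the 4 partner genes with the smallest p in each of 5 pathways, 1 panel a pathway, with SE bars; black points passed an adjusted p of 0.05 in edgeR and grey points did not. Nags stands alone at -2.11 in the urea cycle panel, and Smox (1.11) and Asns (1.36) lie at the upper ends of theirs.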

How the data were processed

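The authors deposited a table of raw counts per gene for each library, with exon length in another column. The submitters' processing notes name Trim Galore 0.6.5, STAR 2.6.1d and the GRCm38 build. Paired fragments were counted per gene on the strand of read 1 with featureCounts 1.6.4 and GENCODE vM25, per the file headers; no option for reads with several alignments or several genes is recorded there. The counts went into edgeR 4.0.16 (R 4.3.3): filterByExpr (minimum count 10, minimum total 15), TMM scaling, and the 2-sided quasi-likelihood F test with genotype as the only term, over 18539 genes, with Benjamini-Hochberg adjustment and a threshold of 0.05. "Rose" and "fell" are used only of genes that passed. CPM values are TMM-scaled, and RPKM divides them by exon length. No label says which libraries form the stated pairs of mice or whether tissue was pooled, and p-values measure the spread between these libraries. A count of 0 allows up to 0.0820 to 0.120 CPM (3 counts), counting error only.

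The members and lists were chosen with earlier results of these data known. Partner genes were named by a rule, the up to 4 smallest p per list. Arg1, Slc25a13, Slc7a1, Gch1, Nos1, Nos3, Amd1, Srm, Sms, Aoc1, Paox, Sat2, Oaz1, Oaz2, Eif5a, Cad and Agmat were named after their values were seen. Values of some partner genes are counted in their lists but not reported here. Pycr3 is listed as Pycrl in the files, matched through RefSeq synonyms, and 1 marker, Prac1, was not matched. Likeness was sought among tested genes of at least 5 CPM on average that are neither members nor predicted genes. Alternatives were other scalings and filters, DESeq2 1.42.0, limma-voom (limma 3.58.1), a replicate block, a 1.5-fold null, a threshold of 0.01, a prior count of 2, TPM, removal of the ribosomal RNA row CT010467.1, and leaving out libraries.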

Additional observations from a re-analysis of the deposited data

How the results depend on the processing

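Log2 fold changes of the 10 enzymes were recomputed under 17 alternatives each. None changed the sign of a member that had passed, and 162 of 170 values moved by less than the spread between replicates. The other 8 were Ass1 without mutant 2 (-0.52), Asl and Oat with library totals alone (0.16 and -0.53), and Cps1, Otc, Ass1, Arg2 and Glul with mutant 3 as the only mutant (-4.64, -3.55, -0.60, -3.81 and -0.51); there the lone mutant is assumed to vary like the controls, and fewer samples were fitted. Against a null of 1.5-fold, which asks for larger changes by construction, 1720 genes were called higher and 1027 lower (14.8% of tested genes), with 4 members and 4 higher and 5 lower partner genes. The other alternatives kept these counts within 1.5 times of those reported. Members called ranged from 5 to 8 when 1 library was left out. In the same fits 3574 to 4335 of all genes were called higher and 3448 to 4236 lower. Nothing is read from the range of members. The share of the summed level held by Cps1 is the same in TPM as in RPKM by construction.

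Replicate numbers did not pair the libraries: deviations from the group means of same-numbered libraries correlated at -0.121, -0.103 and -0.146 across genes, and no library correlated best with its own number. With the replicate number as a block 3789 genes were called higher and 3614 lower, with 7 members and 14 higher and 15 lower partner genes. Low transcripts limit precision most: Agmat, at 0.183 CPM in mutants, lost its call without any of the controls or without mutant 2.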
